A study of Mus musculus with 4 samples.

Results

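The genes described here are the insulin-like growth factor Igf1, its receptors Igf1r and Igf2r, and 6 IGF-binding proteins, Igfbp2 to Igfbp7, as expressed in the mouse heart. They were chosen by their GENCODE symbols, and all 9 were found among the 54752 gene rows of the count table. The libraries are from hearts taken at postnatal day 14, with 2 from wild-type mice and 2 from mice labelled as Carm1 mutants. The gene Carm1 codes for an arginine methyltransferase that modifies histones and coactivators, and the series title places the work in the maturation of heart muscle. The sources used here do not give the allele, any Cre driver, the strain or whether animals were pooled. Neither group has a named treatment, and the series text describes these day 14 hearts as neonatal.

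IGF1 is a secreted growth factor that acts on cells through IGF1R, a receptor tyrosine kinase that signals by way of insulin receptor substrates, PI3K and Akt. IGF2R, also the receptor for mannose 6-phosphate, takes up and clears IGF2 and does not signal as a kinase. The binding proteins hold IGFs in the blood and in the matrix around cells, where they can withhold the ligand or deliver it, and proteases such as PAPP-A release it again. In the heart the pathway is known for growth and survival of muscle cells, while much of the ligand and most binding proteins are made by stromal and vessel cells.

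Of the 9 genes, Igfbp3 was the only one that passed the test across all genes, and it fell to 0.429 of its wild-type mean. Igf1 and Igfbp4 were higher in both mutant-labelled libraries than in both wild-type libraries, with fitted folds of 1.64 and 1.65, and were not called. Igf1r, Igf2r and Igfbp5 had overlapping groups. Igfbp7 had by far the highest level per length in every library, and Igfbp2 was nearly absent.

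The libraries held 11677604 to 22217442 counts. Of 15283 genes that passed the filter on low counts, 1126 (7.37%) passed a false discovery rate (FDR) of 0.05 in edgeR's quasi-likelihood test, 426 (2.79%) higher and 700 (4.58%) lower in the mutant-labelled group. Carm1 itself had 45.9 and 52.3 CPM (counts scaled to a common library size) in the wild-type pair and 35.8 and 31.8 CPM in the mutant-labelled libraries and was not called (log2 fold change −0.54, SE 0.19, edgeR FDR 0.114). Its counts are summed over the gene, which shares 1025 exonic bases with Yipf2 on the other strand, and do not verify a mutant allele. The wild-type libraries carried the transcripts of males and the mutant-labelled libraries those of females: Xist had 12 and 15 against 8116 and 3921 counts, and Ddx3y 575 and 741 against 1 and 0. Genotype label and sex therefore cannot be told apart in any value below. No label ties a library to an animal of its own, so each p-value refers to the spread among the 4 libraries, which may be technical.

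Some of the summed cell type markers differed between the groups. The 10 heart muscle markers, among them Myh6, Tnnt2 and Actc1, summed to 74046 to 84004 CPM in wild type and to 43526 to 46566 CPM in the mutant-labelled libraries, levels that fit the heart label in both groups. The 10 fibroblast markers summed to 3964 to 4472 against 5845 to 6126 CPM, and the 10 markers of blood vessel endothelium to 1615 to 2082 against 2187 to 2521 CPM. Of these lists, 1 heart muscle marker was called (lower), and 0 fibroblast and 0 endothelial markers. Of the fibroblast markers, 9 had a positive log2 fold change and 1, Gsn, a negative one (698 and 698 against 455 and 491 CPM). The groups overlapped in Pdgfra (42.2 and 54.4 against 64.6 and 54.3 CPM). Most of the fibroblast sum was Col1a1, Col1a2 and Col3a1, so ratios to it weigh these collagens above the other markers. Of 10 pericyte and smooth muscle markers and 10 macrophage markers 0 were called, with sums of 2296 to 2715 against 2707 to 2826 CPM and 213 to 262 against 252 to 282 CPM. In both of these sums the groups overlapped. The 6 hepatocyte markers summed to 0.868 to 1.14 CPM in wild type and 1.117 to 2.14 CPM in the mutant-labelled libraries. Most of this was Apoa2, with 10 to 24 counts a library, while Alb and Fga were at 0 in all 4. In whole-tissue RNA, fewer cells of a type and less RNA per cell cannot be told apart.

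Promoter sequences are shown for the 3 binding proteins the results below turn on: Igfbp3, the called gene, Igfbp4, which differed in the other direction, and Igfbp7, the most abundant. Each line gives the 250 bases before the RefSeq transcription start on GRCm38.p6, 5′ to 3′ on the gene's strand. Capitals mark TATAAA or TATATA and the GC box GGGCGG, on either strand.
Igfbp3: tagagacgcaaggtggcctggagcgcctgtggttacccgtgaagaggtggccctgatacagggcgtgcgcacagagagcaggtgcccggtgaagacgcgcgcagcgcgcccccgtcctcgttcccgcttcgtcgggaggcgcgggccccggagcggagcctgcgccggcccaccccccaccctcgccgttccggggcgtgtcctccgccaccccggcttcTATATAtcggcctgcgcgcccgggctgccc
Igfbp4: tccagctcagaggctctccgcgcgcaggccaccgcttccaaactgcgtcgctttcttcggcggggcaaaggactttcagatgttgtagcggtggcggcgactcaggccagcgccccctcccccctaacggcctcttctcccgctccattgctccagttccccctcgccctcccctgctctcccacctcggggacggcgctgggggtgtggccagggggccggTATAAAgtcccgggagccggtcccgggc
Igfbp7: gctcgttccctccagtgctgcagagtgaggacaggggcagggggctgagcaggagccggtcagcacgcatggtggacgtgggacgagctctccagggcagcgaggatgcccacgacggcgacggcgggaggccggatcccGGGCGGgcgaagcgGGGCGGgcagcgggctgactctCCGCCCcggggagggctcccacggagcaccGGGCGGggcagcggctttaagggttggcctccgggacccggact
The Igfbp3 window is chr11:7213924-7214173 on the minus strand, the Igfbp4 window chr11:99040994-99041243 on the plus strand, and the Igfbp7 window chr5:77408046-77408295 on the minus strand. Igfbp3 held TATATA with its first base 30 bases before the start, and Igfbp4 held TATAAA 28 bases before it. Igfbp7 held neither and had 4 GC boxes. Among 32851 RefSeq promoters of the same length, 12.4% held TATAAA, 5.25% TATATA and 32.7% a GC box. These shares count a match anywhere in the 250 bases on either strand, not at a set distance from the start. All 9 genes had a promoter entry. Of the other members, Igfbp6 held TATAAA on the opposite strand (TTTATA on its own), in a match that begins 148 bases before its start. Igf1r held 2 GC boxes, Igf2r 3 and the first of the Igfbp2 windows 3, and no other window held any of these letters. The Igf1 window lies wholly within annotated exons of Igf1 itself, so it does not lie before every annotated start of that gene. The share of G and C was 73.2% for Igfbp3, 69.2% for Igfbp4 and 74% for Igfbp7, where the median of all promoters was 52.4%. These matches describe letters and are not binding data.

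**Figure D1:**
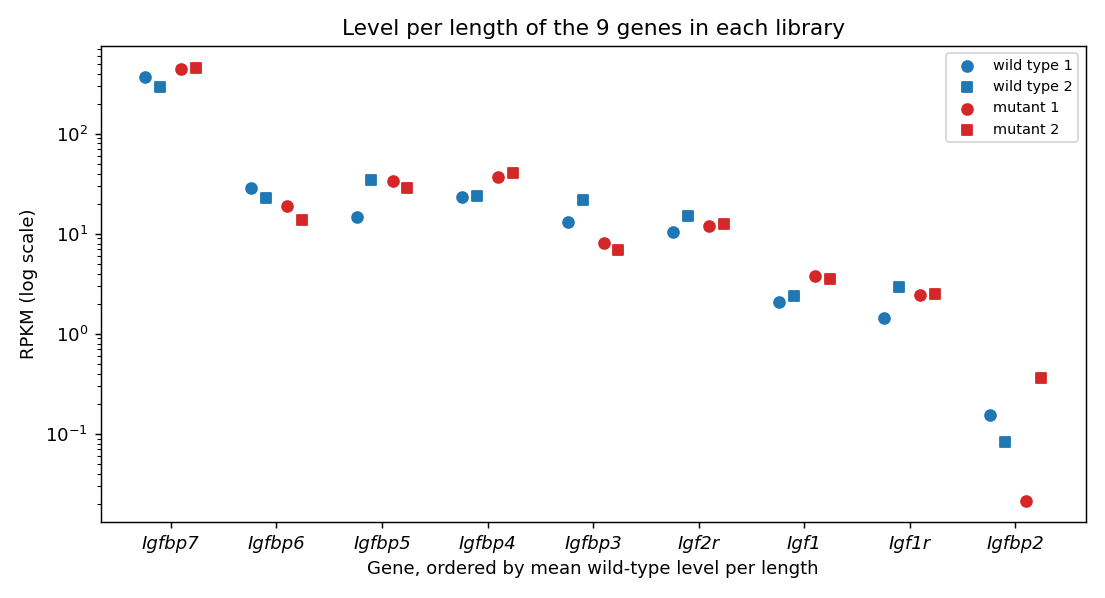
Level per length (RPKM, log axis) of the 9 genes in each library, with circles for replicate 1 and squares for replicate 2, wild type in blue and mutant-labelled in red. Igfbp7 lies between 291 and 459 RPKM, Igfbp3 is lower in both mutant-labelled libraries, and the Igfbp2 points rest on 1 to 9 counts.

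Igf1, the ligand, was the member with the smallest p among those with higher mutant values. Igf1 (ENSMUSG00000020053, chromosome 10, 87858265 to 87937042, plus strand, GRCm38) was counted 358 and 463 times in the wild-type pair and 940 and 472 in the mutant-labelled libraries. Scaled by TMM, this was 20.5 and 23.6 CPM against 37.5 and 34.8 CPM. Both mutant-labelled libraries were above both wild-type libraries, and the gap between groups was larger than the spread within either. In the fit, Igf1 had a log2 fold change of 0.71 (SE 0.19, edgeR FDR 0.0585), with a 95% interval from 1.21-fold to 2.21-fold. Its FDR lay just above the threshold in the main test and moved to both sides of it under other settings. It was 0.0201 with an offset for transcript length and GC content, 0.0482 with upper-quartile factors and 0.0496 with DESeq2. Igf1 stayed uncalled with limma-voom (0.0580), with DESeq2 size factors in edgeR (0.0618) and with the replicate number as a block in edgeR (0.121). Without wild type 1, wild type 2, mutant 1 and mutant 2 in turn, the edgeR FDR of Igf1 was 0.0331, 0.0041, 0.499 and 0.360. The antisense gene Igf1os overlaps Igf1 without sharing an exon and had 0, 1, 1 and 0 counts.

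Igf1 and the summed fibroblast markers were both higher in the mutant-labelled libraries. Per 1000 CPM of summed fibroblast markers, Igf1 stood at 5.17 and 5.29 CPM in the wild-type pair and 6.41 and 5.67 CPM in the mutant-labelled libraries. Set against 1000 CPM of heart muscle markers it stood at 0.244 and 0.319 against 0.861 and 0.746 CPM. The groups did not overlap on either scale, and they lay closer together against fibroblast markers. Whether the amount of fibroblast RNA accounts for the Igf1 values was not tested. Among 4147 well-expressed genes, the pattern of Igf1 over the 4 libraries was most like those of Gnb4, Tgfb1i1 and Sparcl1, with distances of 0.033, 0.035 and 0.045 on the log2 scale. With so few libraries, such closeness is a description only.

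Neither receptor was called, and in each the wild-type pair enclosed the mutant-labelled pair. Igf1r, the signalling receptor (ENSMUSG00000005533, chromosome 7, 67952827 to 68233668, plus strand), had 23.96 and 49.9 CPM in the wild-type pair and 41.5 and 42.3 CPM in the mutant-labelled libraries. The mutant-labelled values of Igf1r lay close together and between the wild-type ones, which differed 2.08-fold from each other. Igf1r had a fitted log2 fold change of 0.18 (SE 0.32, edgeR FDR 0.752), with an interval from 0.682-fold to 1.88-fold. The data are therefore compatible with a difference of either sign within that range. Its sign depended on the wild-type libraries: −0.27 without wild type 1 and 0.77, with a call (edgeR FDR 0.00375), without wild type 2.

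Igf2r, the clearance receptor (ENSMUSG00000023830, chromosome 17, 12682406 to 12769664, minus strand), had 97.2 and 141 CPM in the wild-type pair and 110 and 118 CPM in the mutant-labelled libraries. Its groups overlapped as well. The log2 fold change of Igf2r was −0.06 (SE 0.23, edgeR FDR 0.885), with an interval from 0.663-fold to 1.38-fold, and 0.31 when libraries were scaled by their totals alone and 0.19 without wild type 2. Against fibroblast markers the Igf2r groups were apart, at 24.5 and 31.5 CPM in the wild-type pair and 18.9 and 19.2 CPM in the mutant-labelled libraries per 1000 CPM of markers. Against heart muscle markers they were apart in the other direction, at 1.16 and 1.90 against 2.54 and 2.53 CPM, so the order of the groups for Igf2r turned with the markers chosen. The antisense RNA Airn runs through Igf2r without sharing an exon. Its 45 and 135 counts in the wild-type pair and 203 and 78 in the mutant-labelled libraries stand beside 1700 and 2757 and 2770 and 1597 counts for Igf2r. The sources used here do not say whether counting used strand, so intronic reads of this pair could be assigned to either.

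Within a library, the balance of the receptors does not depend on scaling. Igf1r made up 12.0% and 16.4% of the summed Igf1r and Igf2r level per length in the wild-type pair and 17.2% and 16.6% in those labelled mutant. The groups did not overlap, but the distance between them was smaller than that between the wild-type libraries. The means were 14.2 ± 3.12% and 16.9 ± 0.434% (SD, n = 2 each). An exact two-sided permutation test gave p = 0.333, the smallest that 2 against 2 allows. Long transcripts were under-represented in wild type 1: across 15280 genes, the deviation of that library from the mean of all libraries had a Spearman correlation of −0.30 with exon length, against 0.25, 0.18 and −0.01 in wild type 2, mutant 1 and mutant 2. This correlation is across genes, which are not independent replicates. Igf1r has 16791 bases of merged exons, the most of the 9 genes, and its lowest library was wild type 1. In CPM, wild type 1 was also the lowest library of Igf1, Igf2r, Igfbp4 and Igfbp5. With the offset for length and GC, the log2 fold change of Igf1r was 0.04. Whether the trend with length accounts for the Igf1r values was not tested.

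Igfbp3, the main carrier of IGFs in the circulation, fell. Igfbp3 (ENSMUSG00000020427, chromosome 11, 7206086 to 7213923, minus strand) was counted 718 and 1333 times in the wild-type pair and 634 and 293 in the libraries labelled mutant. This was 41.1 and 68.1 CPM against 25.3 and 21.6 CPM. Both mutant-labelled libraries lay below the lower wild-type library, although the distance between the wild-type libraries, 1.66-fold, was wider than the gap between the groups. The mean of Igfbp3 fell from 54.6 ± 19.1 to 23.4 ± 2.6 CPM (SD, n = 2 each), at a log2 fold change of −1.22 (SE 0.26, edgeR FDR 0.0357) and an interval from 0.281-fold to 0.657-fold. The call was lost with library totals as the only scaling (edgeR FDR 0.109). It was also lost without mutant 1 and without mutant 2, where the lone mutant-labelled library was assumed to vary like the wild-type pair. The log2 fold change of Igfbp3 was −1.34 without mutant 1 and −1.12 without mutant 2. Over all alternatives the log2 fold change ran from −1.55 without wild type 1 to −0.84 without wild type 2. All 17 alternatives gave a lower value in the mutant-labelled group. As the groups do not overlap, leaving out a library could hardly change this sign. The alternative that only changed the FDR threshold reused the main fit.

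**Figure D2:**
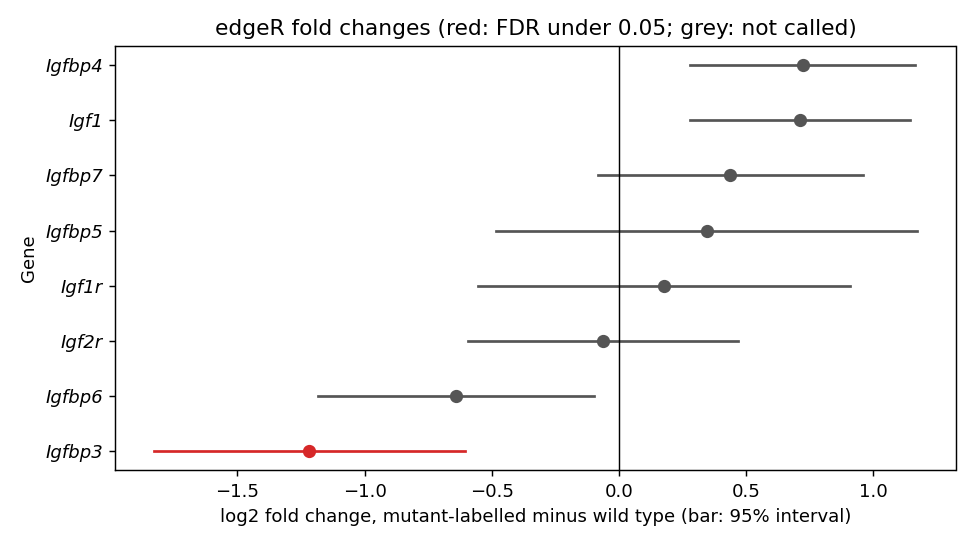
Fitted log2 fold changes (mutant-labelled minus wild type) with 95% intervals for the 8 tested genes, Igfbp2 being too low to test. Igfbp3 at −1.22 is the only gene past an edgeR FDR of 0.05, and the intervals of Igf1 and Igfbp4 start at 0.28.

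Igfbp3 was also low against stromal and vessel markers. Per 1000 CPM of fibroblast markers Igfbp3 stood at 10.4 and 15.2 CPM in the wild-type pair and 4.33 and 3.52 CPM in the mutant-labelled libraries. For endothelial markers the values were 25.4 and 32.7 against 10.03 and 9.87 CPM. Against these markers the groups lay further apart than in CPM. Against heart muscle markers the groups overlapped, at 0.489 and 0.919 against 0.581 and 0.463 CPM per 1000 CPM. The part of a change in heart muscle RNA in the Igfbp3 value was not tested. The genes whose pattern was most like that of Igfbp3 over the 4 libraries were Filip1, Msi2 and Dmd, the dystrophin gene, with distances of 0.15, 0.22 and 0.24 on the log2 scale. All of them were called lower, which their choice by likeness to Igfbp3 fixed.

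**Figure D3:**
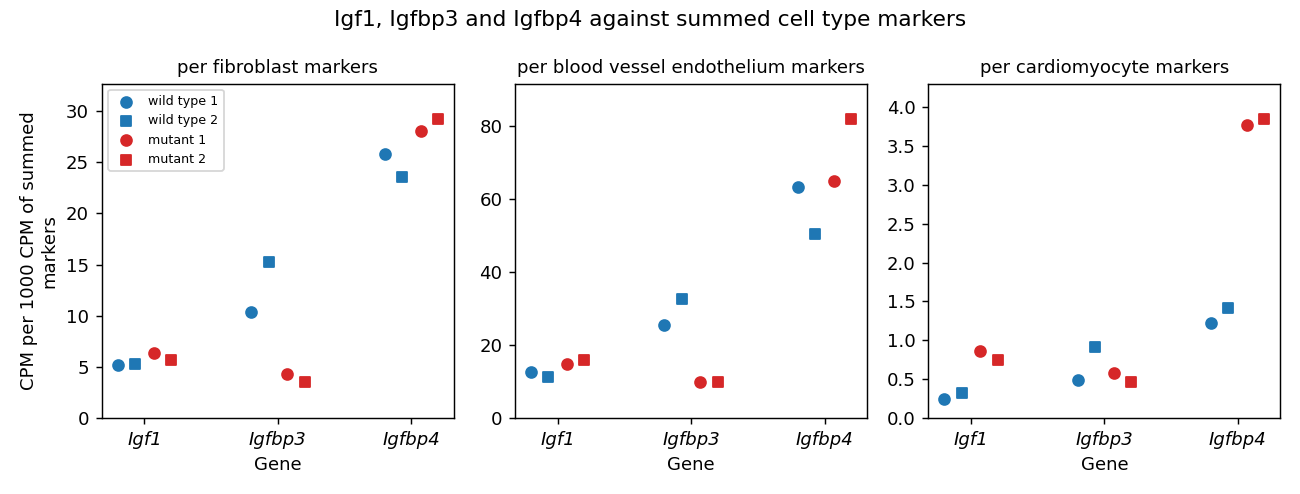
Igf1, Igfbp3 and Igfbp4 in CPM per 1000 CPM of summed fibroblast, endothelial or heart muscle markers, 1 point per library, circles for replicate 1 and squares for replicate 2. The Igfbp3 groups are apart against fibroblast and endothelial markers and overlap against heart muscle markers, and Igf1 spans 5.17 to 6.41 against fibroblast markers.

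Igfbp4, a binding protein that withholds IGFs until PAPP-A cleaves it, differed in the direction opposite to Igfbp3. Igfbp4 (ENSMUSG00000017493, chromosome 11, 99041244 to 99054392, plus strand) had 102 and 105 CPM in the wild-type pair and 164 and 179 CPM in the mutant-labelled libraries. The replicates were close in both groups, which did not overlap. Igfbp4 had a log2 fold change of 0.72 (SE 0.19, edgeR FDR 0.0601), with an interval from 1.21-fold to 2.24-fold. It was not called in the main test, and was called with DESeq2 (adjusted p = 0.0174) and with the offset for length and GC (edgeR FDR 0.0196). Igfbp4 stayed uncalled with limma-voom (FDR 0.0571) and with the replicate number as a block (edgeR FDR 0.169). Leaving out wild type 1, wild type 2, mutant 1 and mutant 2 in turn gave Igfbp4 an edgeR FDR of 0.0144, 0.00495, 0.458 and 0.537. Relative to 1000 CPM of fibroblast markers Igfbp4 stood at 25.8 and 23.5 CPM in the wild-type pair and 28.04 and 29.2 CPM in the mutant-labelled libraries, so the groups stayed apart and lay closer together than in CPM. The count ratio of Igf1 to Igfbp4 was 0.200 and 0.225 in the wild-type pair and 0.229 and 0.194 in the mutant-labelled libraries, with overlapping groups.

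The count ratio of Igfbp4 to Igfbp3, which no scaling between libraries can alter, was 2.49 and 1.55 in the wild-type pair and 6.48 and 8.28 in the libraries labelled mutant. That of Igf1 to Igfbp3 was 0.499 and 0.347 against 1.48 and 1.61. In both ratios the lower mutant-labelled library was well above the higher wild-type one. For Igfbp6 to Igfbp3 the ratios overlapped, at 0.781 and 0.369 against 0.844 and 0.703. A library trend with exon length can still alter such ratios, as Igfbp3 has 3130 bases of merged exons, Igfbp4 4416 and Igf1 9904. These ratios were chosen after the values were seen and carry no test.

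Igfbp5, a binding protein that attaches to matrix, showed a wild-type spread wider than any gap between groups. Igfbp5 (ENSMUSG00000026185, chromosome 1, 72857932 to 72874884, minus strand) had 89.3 and 206 CPM in the wild-type pair and 201 and 174 CPM in the mutant-labelled libraries. The wild-type libraries differed 2.31-fold, the widest such gap among the tested members, and enclosed both mutant-labelled values. The log2 fold change of Igfbp5 was 0.35 (SE 0.36, edgeR FDR 0.570), with an interval from 0.715-fold to 2.26-fold. It was −0.15 without wild type 1 and 1.03, with a call (edgeR FDR 7.53e-04), without wild type 2.

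Igfbp6, which prefers IGF2 over IGF1, had lower values in the mutant-labelled libraries. Igfbp6 (ENSMUSG00000023046, chromosome 15, 102144362 to 102149511, plus strand) had 32.1 and 25.1 CPM in the wild-type pair and 21.3 and 15.2 CPM in the mutant-labelled libraries. The groups did not overlap, but the gap between them was smaller than the spread within either. For Igfbp6 the log2 fold change was −0.64 (SE 0.23, edgeR FDR 0.126), with an interval from 0.441-fold to 0.934-fold, and −0.24 with library totals. Without wild type 2 it was −0.83 and called (edgeR FDR 0.0077). Relative to 1000 CPM of fibroblast markers Igfbp6 stood at 8.09 and 5.62 CPM in the wild-type pair and 3.65 and 2.48 CPM in the mutant-labelled libraries. Against heart muscle markers the Igfbp6 groups overlapped, at 0.382 and 0.339 against 0.490 and 0.326 CPM per 1000 CPM.

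Igfbp7, a relative of the binding proteins with weak affinity for IGFs that vessel cells secrete, was the most abundant. Igfbp7 (ENSMUSG00000036256, chromosome 5, 77349240 to 77408041, minus strand) had 451 and 352 CPM in the wild-type pair and 534 and 555 CPM in the mutant-labelled libraries. Its groups did not overlap, with a gap smaller than the distance between the wild-type libraries. For Igfbp7 the log2 fold change was 0.44 (SE 0.23, edgeR FDR 0.249), with an interval from 0.945-fold to 1.94-fold. It was called without wild type 1 (0.61, edgeR FDR 0.0209) and with library totals (0.84, edgeR FDR 0.039), and was 0.23 (edgeR FDR 0.248) without wild type 2. The Igfbp7 groups overlapped per 1000 CPM of endothelial markers, at 279 and 169 CPM in the wild-type pair and 212 and 254 CPM in the mutant-labelled libraries. Igfbp7 shares 85 exonic bases with the neighbour Polr2b on the other strand.

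Igfbp2, a binding protein abundant in fetal tissues, did not reach the filter on low counts. Igfbp2 (ENSMUSG00000039323, chromosome 1, 72824503 to 72852474, plus strand) was counted 5 and 3 times in the wild-type pair and 1 and 9 in those labelled mutant (the limit for an observed 0 is 3 counts). The groups overlapped, and no fold is given. Igfbp2 lies 5457 bases from Igfbp5 with no protein-coding gene between, and Igfbp5 had 1561 to 5040 counts in the same libraries. The other neighbouring pair is alike in this respect. Igfbp1, which is 3539 bases from Igfbp3 and is known from liver, had no count in any library, allowing up to 0.135 to 0.257 CPM of the library total (3 counts; counting error only).

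Counted over the family, 1 of the 8 tested genes was called, 0 higher and 1 lower, beside the 7.37% of all tested genes given above. At an unadjusted edgeR p under 0.05 there were 4 of 8 (Igf1, Igfbp3, Igfbp4 and Igfbp6), where 27.8% of all tested genes stood. The groups did not overlap in 5 of 8, 3 higher and 2 lower, where this held for 59.0% of all tested genes, 30.3% higher and 28.7% lower. The median log2 fold change of the 8 was 0.26 and that of all tested genes 0.02. With signs on both sides and shares this near to those of all genes for non-overlap, these counts are no result about the family as a whole.

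Compared per length, the order of levels was led by Igfbp7 at 332 ± 58 RPKM (CPM per kilobase of merged exons) in the wild-type pair and 450 ± 12 RPKM in the mutant-labelled libraries. In wild type, Igfbp6 (25.7 ± 4.4), Igfbp5 (24.6 ± 13.7) and Igfbp4 (23.5 ± 0.473 RPKM) followed and did not differ beyond their spread. Igfbp3 (17.4 ± 6.1) and Igf2r (12.8 ± 3.3 RPKM) came next, again within their spread. Igf1 (2.23 ± 0.226) and Igf1r (2.2 ± 1.09 RPKM) could not be placed in order, and Igfbp2 was last at 0.119 RPKM. In the mutant-labelled libraries Igfbp4 (38.8 ± 2.4 RPKM) held the second place. Igfbp3 (7.49 ± 0.838 RPKM) ranked 5 of 9 in both wild-type libraries and 6 in both mutant-labelled ones, behind Igf2r (12.3 ± 0.541 RPKM).

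The summed level per length of Igfbp1 to Igfbp7 was 453 and 394 RPKM in the wild-type pair and 540 and 549 RPKM in the mutant-labelled libraries, most of it Igfbp7. The groups did not overlap (exact two-sided permutation p = 0.333). The mix of binding proteins within a library does not depend on scaling between libraries. It can depend on the library trends with exon length given above, as exon lengths run from 1112 bases (Igfbp6) to 6006 (Igfbp5). The part of these trends in the shares was not tested. Igfbp3 made up 2.89% and 5.52% of the summed level per length of Igfbp1 to Igfbp7 in the wild-type pair and 1.497% and 1.26% in the mutant-labelled libraries. Igfbp6 made up 6.37% and 5.73% against 3.56% and 2.48%, and Igfbp4 5.11% and 6.05% against 6.88% and 7.37%. In none of these 3 genes did the groups overlap. Igfbp5 (3.28% and 8.70% against 6.20% and 5.28%) and Igfbp7 (82.3% and 74.0% against 81.9% and 83.5%) had overlapping groups. For Igfbp3, Igfbp4 and Igfbp6 an exact two-sided permutation test gave p = 0.333 each, the smallest possible with 2 against 2, so this design cannot pass 0.05. The p-values of the 6 detected binding proteins were not adjusted further, since none could pass.

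**Figure D4:**
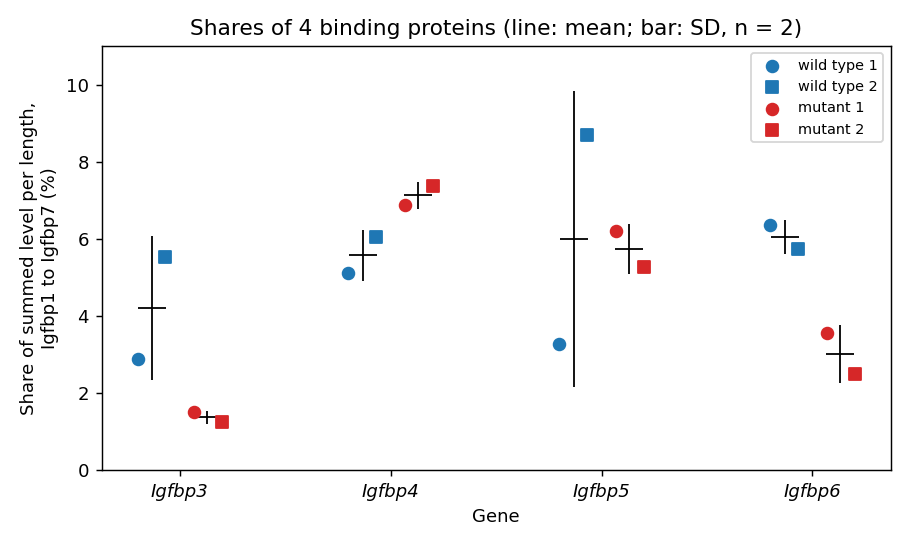
Share of Igfbp3, Igfbp4, Igfbp5 and Igfbp6 in the summed level per length of Igfbp1 to Igfbp7, 1 point per library, with the mean as a line and the SD of 2 libraries as a bar. Igfbp3 and Igfbp6 are lower and Igfbp4 is higher in both mutant-labelled libraries, while the wild-type points of Igfbp5, 3.28% and 8.70%, lie on both sides of the others.

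Around the 9 genes, 64 other genes of IGF signalling were listed by role and 61 were tested. Of these 4 fell, 0 rose and 57 were not called in edgeR, with a median log2 fold change of −0.06. Over all tested genes 7.37% were called and 4.58% were called lower, so 4 of 61 is near the background and is no result about the pathway as a whole. The calls were spread over 2 lists. Their number depended on the libraries: without wild type 1, wild type 2, mutant 1 and mutant 2 in turn, 11, 28, 2 and 0 were called. With library totals alone 1 was called, Pik3r3, which was higher.

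Of 10 receptor adaptors and inhibitors, 3 fell and 7 were not called. Irs1, the docking protein that carries the signal from IGF1R and the insulin receptor to PI3K, had 9.72 and 12.6 CPM in the wild-type pair and 5.03 and 3.83 CPM in the mutant-labelled libraries. Its groups lay well apart, and Irs1 fell by 1.32 on the log2 scale (SE 0.26, edgeR FDR 0.0274). Grb14, an adaptor that inhibits insulin receptor signalling, went down from 127 ± 21 to 62.4 ± 6.7 CPM, n = 2 each (log2 fold change −1.03, SE 0.21, edgeR FDR 0.0304). Ptpn11, the phosphatase SHP2, fell from 181 ± 15 to 97.5 ± 12.9 CPM, n = 2 each (−0.89, SE 0.21, edgeR FDR 0.0416). The related docking protein Irs2, named after its values were seen, had 18.1 and 28.8 CPM against 30.9 and 27.98 CPM and was not called (edgeR FDR 0.419).

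Of 6 genes of the growth hormone axis, which drives Igf1 transcription in liver, 1 fell and 5 were not called. Stat5a, a transcription factor activated by the growth hormone receptor, had 25.5 and 30.4 CPM in the wild-type pair and 13.6 and 14.4 CPM in the mutant-labelled libraries. Both mutant-labelled values were well below both others, and Stat5a fell by 0.998 on the log2 scale (SE 0.19, edgeR FDR 0.0273). The called genes Irs1, Grb14, Ptpn11 and Stat5a were lower in groups whose heart muscle markers were lower too. Whether that accounts for them was not tested.

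**Figure D5:**
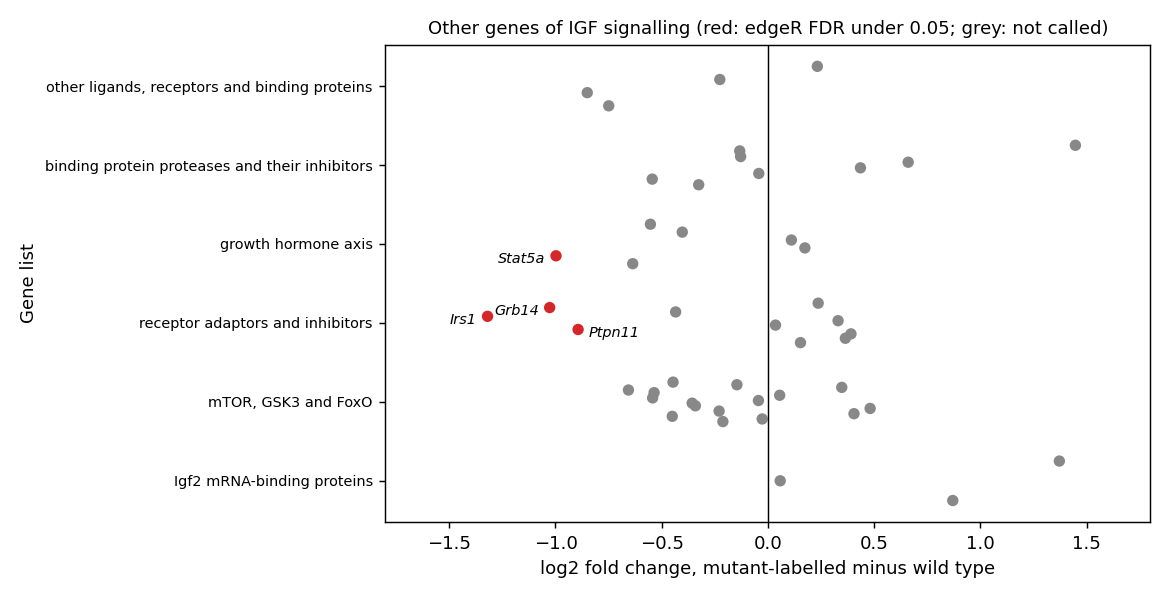
Log2 fold changes (mutant-labelled minus wild type) of 47 tested genes in 6 of the lists, 1 point per gene, with genes past an edgeR FDR of 0.05 in red and named. The 4 named genes lie between −1.32 and −0.89, and the other points stand on both sides of 0.

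None of the remaining lists described here held a called gene. Of 6 other ligands, receptors and binding proteins 4 were tested. Igf2, the second ligand, had 5.09 and 10.52 CPM in the wild-type pair and 10.6 and 7.66 CPM in the mutant-labelled libraries, with overlapping groups (log2 fold change 0.23, SE 0.35, edgeR FDR 0.708). The antisense gene Igf2os shares 98 exonic bases with Igf2 and had 6, 22, 56 and 21 counts. Insr, the insulin receptor, had 85.0 and 127 CPM against 66.1 and 59.7 CPM (−0.75, SE 0.24, edgeR FDR 0.0908). Its groups did not overlap, and it was not called.

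Of 9 proteases of binding proteins and their inhibitors 8 were tested. Mmp2 had a log2 fold change of 0.44 (SE 0.20) and Htra1 one of −0.13 (SE 0.20), at edgeR FDRs of 0.204 and 0.722. Pappa, whose product PAPP-A cleaves Igfbp4 and Igfbp5 and which was named after its values were seen, was low at 0.4 and 1.43 CPM against 1.2 and 0.515 CPM, with overlapping groups. Of 16 genes of mTOR, GSK3 and FoxO, Eif4ebp1, a repressor of translation, stood at −0.45 (SE 0.25, edgeR FDR 0.281) and Tsc2 at −0.21 (SE 0.19, edgeR FDR 0.499). Of the 3 Igf2 mRNA-binding proteins, Igf2bp2 stood at 0.06 (SE 0.22, edgeR FDR 0.891) and Igf2bp3 at 0.87 (SE 0.41, edgeR FDR 0.214).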

How the data were processed

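Raw counts per gene were used as the authors deposited them, and the submitters' processing notes name FastQC, HISAT2 and the mm10 build. The sources used here do not give the counting program, its annotation, its strand setting or its treatment of multi-mapped reads. Columns were matched to samples by title and grouped by genotype label, and 54723 of 54752 identifiers had a GENCODE M21 name (GRCm38, the assembly of mm10). Within pairs, chi-square per degree of freedom was 51.1 (wild type) and 11.5 (mutant-labelled), so the libraries of a pair differed beyond counting error. This does not show that they came from separate animals.

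Genes were kept by filterByExpr at its defaults, given TMM factors and tested in R 4.3.3 with edgeR 4.0.16 (glmQLFit, glmQLFTest, genotype as the only term, 2 residual degrees of freedom), with Benjamini-Hochberg adjustment over 15283 genes. Each SE is the size of the log2 fold change over the root of its F statistic. All CPM values use TMM-effective library sizes, and RPKM adds merged exon length. Shares within a library were compared by exact permutation. The alternatives included DESeq2 1.42.0, limma-voom (limma 3.58.1), other scalings and filters, a length and GC offset (mgcv), libraries left out, and replicate blocks. The edgeR steps were also run on simulated counts. The simulation held no library trend with exon length, so it cannot show how the test behaves where such trends are present. Promoters are from RefSeq, GRCm38.p6.

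The members and lists were chosen with earlier results of these data known. Named are all 9 members, Carm1, Igf2, Igfbp1, up to 4 called genes of each list by adjusted p or else its 2 most abundant, genes overlapping a member, and, for the member with the smallest p in each direction, the 3 genes nearest to it in log2 CPM centred on each gene's mean (mean logCPM of at least 5). Pappa, Irs2, Yipf2, Pik3r3, Adam12 and ratios to summed markers were added after the values were seen. For 1 of the pathway lists, results are not reported here beyond its part in the totals over all lists.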

Additional observations from a re-analysis of the deposited data

How the results depend on the processing

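With 2 libraries a group, counts of calls moved with the libraries used; where a library was left out, the lone one of its group was assumed to vary like the other group. Against 1126 called genes, leaving out a library gave 377 to 5679, no filter 2630, DESeq2 1709, an FDR of 0.10 2488, and the length and GC offset 2589; library totals alone gave 1189 higher and 206 lower calls, and moved the median over all tested genes from 0.02 to 0.41 (log2). Against 1 called member, leaving out a library gave 0 to 6; library totals, no filter, DESeq2, an FDR of 0.10 and the length and GC offset each gave 3, and upper-quartile factors 2. Against 4 called pathway genes, leaving out a library gave 0 to 28 and library totals 1. The log2 fold change ran over the left-out libraries from −0.27 to 0.77 for Igf1r, −0.32 to 0.19 for Igf2r and −0.15 to 1.03 for Igfbp5, and was 0.31 for Igf2r with library totals. The difference in share ran from −2.96 to 2.46 points for Igfbp5 (0.00394 from counts without length) and from −0.0236 to 0.0377 points for Igfbp2; of 42 alternative values of shares 4 changed sign, all in these genes. Igf1, Igfbp3, Igfbp4, Igfbp6 and Igfbp7 kept their direction in all 17 alternatives each. Part of this was fixed in advance. The groups of these genes do not overlap, so leaving out a library could hardly change their sign. The FDR of 0.10 reused the fold changes of the main fit. The cause of these changes was not tested.

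Same-numbered libraries did not deviate together (correlation across genes −0.247). With 2 libraries a group, both pairs give this same value by construction. The check therefore cannot decide whether the replicate number pairs libraries. A replicate block gave 1222 called genes, 1 called member (Igfbp3, edgeR FDR 0.0089) and 4 called pathway genes, where Ptpn11 was no longer called and Adam12 was called higher, and with the length and GC offset 2495 genes and 4 members. Crossed pairing, chosen after seeing the data, gave 4176 genes and 4 members.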
